A study of Mus musculus with 9 samples.

Results

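The interferon-induced genes are a set of 44 mouse genes that are transcribed when cells respond to interferon, chosen by symbol. A gene was taken as measured where an Affymetrix probe set was assigned to it and to no other gene. Where several qualified, the brightest on average over the 9 arrays was used. On this rule 42 of the 44 were measured, among 18193 genes on the arrays. The only probe set of Isg15 is also assigned to another gene, and Isg15 and Ifi44 were not analysed here.

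The samples were epidermis of adult mice on the hairless SKH1 background (5 backcross generations), all homozygous for a floxed allele of Alox12b, the epidermal 12R-lipoxygenase that oxidises lipids of the skin barrier. At 8 weeks of age every mouse received 3 intraperitoneal injections of 1 mg tamoxifen in sunflower seed oil. In 5 mice, called inactivated here after their labels (Alox12b fl/fl Cre, genotype p/p +/cre), a Cre-ERT2 recombinase under the cytokeratin K14 promoter, which is active in keratinocytes, was present. The 4 controls were floxed littermates (Alox12b fl/fl) without it, and in these groups the loss of the gene and the activity of the recombinase cannot be told apart. Skin was taken 6 days after treatment and frozen, and the epidermis was scratched off. The labels number the arrays as biological replicates, 1 array each, and values are probe set levels on a log2 scale.

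Interferons are secreted proteins that cells release on sensing foreign or misplaced nucleic acid. Type I and type III interferons signal through Jak1 and Tyk2 to a complex that includes Stat2 and Irf9 and binds the interferon-stimulated response element (ISRE) in promoters. Interferon gamma signals through Jak1 and Jak2 to factors that bind the gamma-activated sequence (GAS). The genes switched on encode sensors of viral RNA, proteins that block viral replication, and the machinery that cuts proteins and loads peptides onto MHC class I molecules. Keratinocytes carry receptors for interferons, as do the immune cells that live in epidermis, and low expression of many of these genes is kept up without infection.

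The letters through which these genes are known to be reached were searched in RefSeq promoter windows, from 250 bases before to 50 bases after each start (build GRCm38.p6). Windows were present for 33 of the 44 members. Not among them were Dhx58, Zbp1, Usp18, Oas2, Mx1, Mx2, Parp9, Parp14, Tap2, Ifi27 and Rtp4. The ISRE core, here 2 copies of GAAA with any 2 bases between them on either strand, was found for 12 of the 33 members (36.4%) and for 3.99% of all 27025 genes with a window. The GAS letters TTCNNNGAA, which read the same on both strands, were found for 8 of the 33 members (24.2%) and for 9.55% of all genes. The following stretches show the core, in capitals, with its neighbouring bases, so that a promoter element and a measured level can be read side by side. They cover the 8 with the lowest adjusted p of the 11 measured members with a core. The others, Ifit1, Eif2ak2 and Cxcl10, also held a core and were not called. Each stretch is written 5′ to 3′ on the strand of the gene.
Ifih1 (chr2:62646206-62646233, minus strand): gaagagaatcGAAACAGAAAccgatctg
Gbp2 (chr3:142620594-142620623, plus strand): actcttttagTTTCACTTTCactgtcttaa
Ifit3 (chr19:34583397-34583426, plus strand): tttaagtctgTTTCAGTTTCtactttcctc
Ddx58 (chr4:40239804-40239833, minus strand): cctgaggcagTTTCGATTTCctatggccag
Gbp3 (chr3:142559995-142560024, plus strand): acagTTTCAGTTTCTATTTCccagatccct
Stat2 (chr10:128270266-128270295, plus strand): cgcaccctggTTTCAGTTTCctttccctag
Rsad2 (chr12:26456553-26456582, minus strand): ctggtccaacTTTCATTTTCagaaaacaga
Bst2 (chr8:71537577-71537606, minus strand): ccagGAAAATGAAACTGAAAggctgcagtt
The core nearest the start began 39 bases before it in Gbp3, 59 in Gbp2, 120 in Rsad2, 122 in Ifit3, 124 in Bst2 and 222 in Stat2. In Ddx58 and Ifih1 it lay just after the start, beginning at base 3 and base 33. Gbp3 and Bst2 each held 2 overlapping cores, and one of those of Bst2 also overlapped a GAS match. The first 6 of these genes were lower in the inactivated group, and Rsad2 and Bst2 did not pass the test, as described for each below. A core was present in 6 of 18 members called lower that had a window (33.3%) and in 5 of 13 members not called (38.5%). Tap1 and Psmb9, which lie head to head with 225 bases between their starts and were both lower, held neither set of letters in their windows. A match is a description of letters and no evidence of binding.

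The targeted gene was higher in the inactivated group. Alox12b ranged from 9.50 to 10.17 in the inactivated group and from 9.19 to 9.40 in the controls, a 1.53-fold difference (adjusted p = 0.00694). The labels do not say which part of the gene is floxed, and the labelling kit primes at the 3′ end of transcripts, so this probe set does not check the labels. Keratinocyte markers were bright in every sample: all 8 measured keratinocyte markers had values of 9.84 or more on every array. Their summed linear level was 44900 to 48400 in the inactivated group and 45800 to 47500 in the controls, which overlapped. Trp63 was lower (-0.35, adjusted p = 0.0115) and Krt14 higher (0.47, adjusted p = 0.000445), each without overlap of the arrays. The other 6 were not called. The epidermis also held dermal transcripts, since Col1a2 and Col3a1, collagen genes of fibroblasts, averaged 12.88 and 12.66 in the controls and 11.58 and 11.75 in the inactivated group. Array medians lay between 4.34 and 4.42, and the number of arrays limits the precision. Inactivated replicate 5 was the nearest of its group to the controls in the mean level of the genes described here. Xist and Y-linked probe sets read 3 of 5 inactivated mice and 1 of 4 control mice as female, so sex and group were partly confounded.

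The chosen set of interferon-induced genes was lower in the inactivated epidermis, while a longer list of other such genes, given below, was closer to the background. Of the 42 measured, 23 fell (54.8%) and 0 rose, at an adjusted p under 0.05 in limma over all probe sets, and 19 were not called. Over all 18193 genes, 18.9% were lower and 15.5% were higher by the same rule. At an unadjusted p under 0.05, 26 members were lower and 0 higher, against 23.5% and 22.5% of all genes. The difference was negative in 37 of the 42, with a median of -0.57 on the log2 scale and a range from -1.24 (Ifit2) to 0.16 (Mx1), and the median over all genes was 0.03. Falls of the called members ran from 1.27-fold to 2.36-fold, and 3 of them were at least 2-fold. Every inactivated array lay below every control array for 16 members (38.1%), which held for 17.6% of all genes, and no member showed the opposite, which held for 14% of all genes. The members were chosen with results of these data known, so these counts carry no test of the set.

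**Figure D1:**
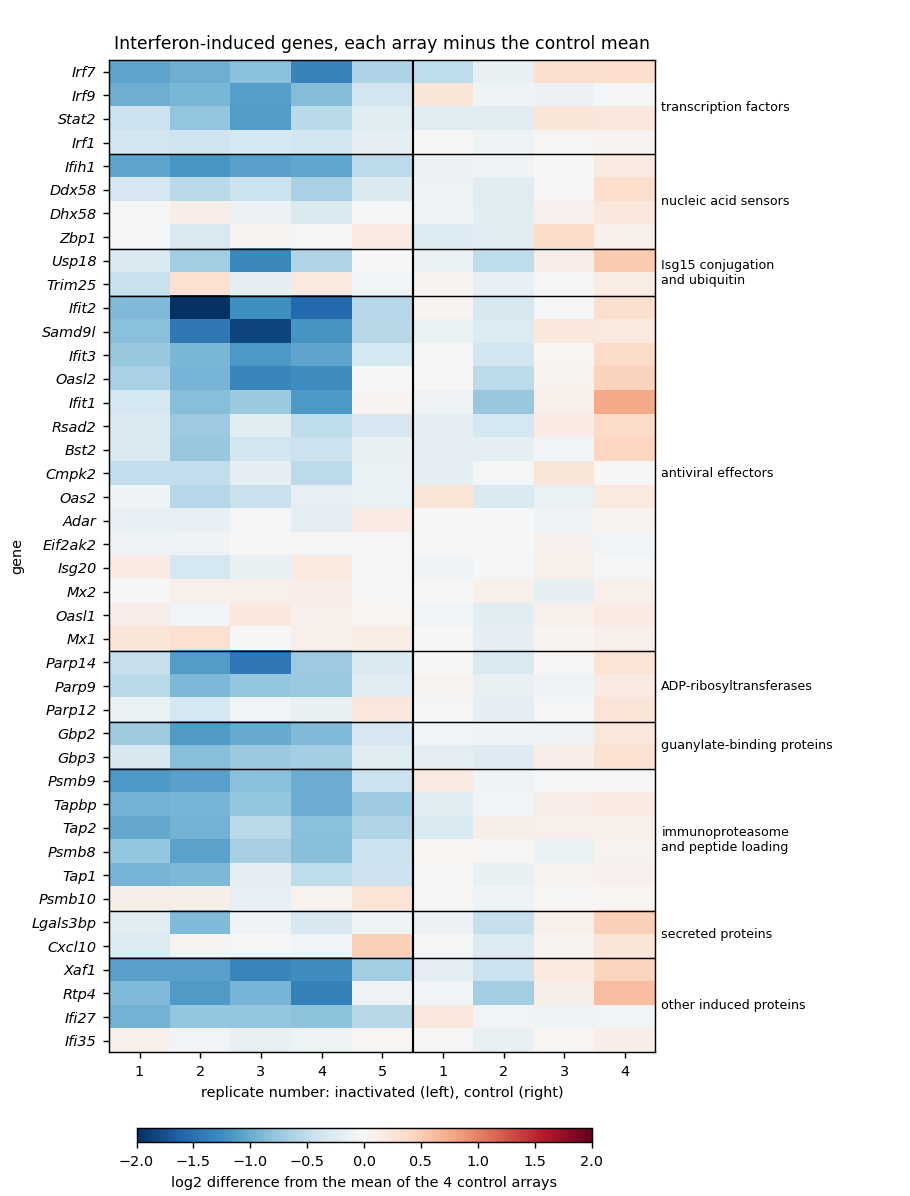
Log2 value of each measured interferon-induced gene (rows, grouped by role) minus the mean of its 4 control arrays, for 5 inactivated and 4 control arrays (columns); blue is below and red above the control mean. Blue fills most rows on inactivated replicates 1 to 4 and is paler on inactivated replicate 5, and the Mx1, Mx2, Oasl1 and Psmb10 rows stay near 0.

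The module level, the mean over the 42 members of each log2 value minus that gene's control mean, was -0.47, -0.65, -0.58, -0.58 and -0.19 on inactivated replicates 1 to 5. It was -0.06, -0.21, 0.05 and 0.22 on control replicates 1 to 4. The groups averaged -0.49 ± 0.18 (SD, n = 5) and 0 ± 0.18 (SD, n = 4), and inactivated replicate 5 lay just above the lowest control, so they overlapped by that array alone. Replicate 5 was the highest inactivated array for 29 of the 42 members and for 21 of the 23 that were called lower. It was below the lowest control for 16 members, against 27, 34, 28 and 29 members on replicates 1 to 4. Without it the module level of the inactivated group was -0.57, 24 members were called lower, against 19.7% of all genes, and 23 had no overlap in that direction, against 20.1% of all genes. The controls also differed among themselves in 1 direction over many members: control replicate 4 was the highest control for 30 members and control replicate 2 the lowest for 27.

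For each sex the brightest probe set of a gene was picked again on the arrays of that sex. Within male mice alone (2 against 3) the module level was -0.57 and 18 members were called lower, against 14.5% of all genes. Within female mice (3 against 1) it was -0.39. With 1 control mouse limma called 0 members and 0 of all genes, so the count says nothing of the fall in females. At an unadjusted p under 0.05, 6 members and 10.8% of all genes were lower there. The single female control lay at -0.06 and the female inactivated mice between -0.58 and -0.19.

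**Figure D2:**
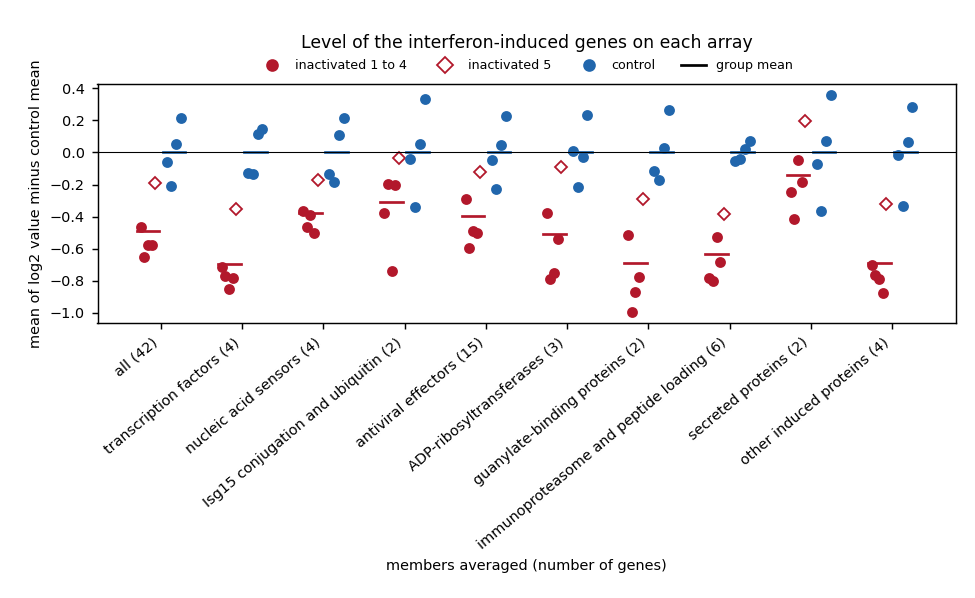
Mean over members of the log2 value minus the control mean, for all 42 members and for each role (x axis, number of genes in brackets), 1 point per array; horizontal bars are group means and the open diamond is inactivated replicate 5. For all members the inactivated arrays sit between -0.65 and -0.19 and the controls between -0.21 and 0.22, and the guanylate-binding proteins, transcription factors and immunoproteasome group show no overlap of the arrays.

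Markers of several other cell types of the skin were lower too. Over all genes, 18.9% were called lower and 15.5% higher. The plasmacytoid dendritic cell, neutrophil and endothelial counts below lay near those shares. T cell markers fell in 6 of 10 and rose in 1, and their summed linear level was 446 to 613 in the inactivated group and 1110 to 1470 in the controls. Langerhans cell markers fell in 5 of 8, with sums of 7780 to 11000 and 11500 to 12900. Cd74, Epcam, H2-Aa, H2-Ab1 and H2-Eb1 were the brightest of these markers and dominated the sums, which therefore say little of the dimmer ones. Among those, Cd207 averaged 7.99 in the inactivated group and 8.96 in the controls (-0.98, adjusted p = 0.0107), and Itgax and Ly75 were not called. Macrophage markers fell in 6 of 12 and rose in 1, with sums of 4050 to 7530 and 7480 to 9390, which overlapped. Fibroblast markers fell in 7 of 8, with sums of 9050 to 15400 and 16400 to 25600. Plasmacytoid dendritic cell markers, of a cell type known for making much type I interferon, fell in 1 of 7 and rose in 1, with sums of 6140 to 8020 and 5930 to 6630. Ly6d made up 89.2% to 95.1% of these sums. It averaged 12.69 in the inactivated group and 12.48 in the controls, brighter than the keratinocyte marker Krt5 (12.19 and 12.26). The sums are therefore no measure of plasmacytoid dendritic cells. The other 6 markers together summed to 354 to 498 and 474 to 639, which overlapped. Neutrophil markers fell in 1 of 6 and rose in 1, with sums of 129 to 140 and 134 to 200, and endothelial markers fell in 1 of 7 and rose in 1, with sums of 270 to 461 and 304 to 433. No marker was at 0 on any array. The part of these cells in the fall of the interferon-induced genes was not tested, and in bulk epidermis fewer cells of a type and less RNA per cell cannot be told apart.

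All 4 transcription factors of the set fell, against 18.9% of all genes. Irf9, the DNA-binding subunit of the complex that recognises the ISRE, read 6.05, 6.13, 5.93, 6.17 and 6.67 on inactivated replicates 1 to 5 and 7.27, 6.94, 6.92 and 7.01 on control replicates 1 to 4. The groups did not overlap, and Irf9 was 1.8-fold lower, a log2 difference of -0.85 ± 0.14 (SE, adjusted p = 0.00143). Irf7, which drives the transcription of interferon alpha genes and is itself induced by interferon, read 5.39, 5.47, 5.62, 5.10 and 5.83 against 5.94, 6.29, 6.77 and 6.78. It was 1.95-fold lower without overlap (-0.96 ± 0.19, SE, adjusted p = 0.00377). Irf1, a factor induced by interferon gamma that acts on class I presentation genes, read 7.04, 7.02, 7.08, 7.04 and 7.25 against 7.44, 7.35, 7.44 and 7.48. Its spread was small in both groups, and a difference of -0.34 ± 0.07 (SE, adjusted p = 0.00489) was enough to separate every array. Stat2, a subunit of the ISRE-binding complex, differed by -0.62 ± 0.18 (SE, adjusted p = 0.0249), and inactivated replicate 5 was level with the lowest control. Its other probe set differed by -1.03 (adjusted p = 0.000201). The call of Stat2 by its brighter probe set was lost without inactivated replicate 2, control replicate 3 or control replicate 4 (adjusted p up to 0.0783), and with sex as a covariate (-0.57, adjusted p = 0.0546).

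Among the nucleic acid sensors, Ifih1 and Ddx58 fell and Dhx58 and Zbp1 were not called. Ifih1, the MDA5 sensor of long double-stranded RNA, read 6.91, 6.80, 6.88, 6.91 and 7.43 on the inactivated arrays and 7.84, 7.89, 7.97 and 8.13 on the controls. It was 1.96-fold lower without overlap (-0.97 ± 0.13, SE, adjusted p = 0.000297), and its promoter stretch above holds a core just after the start. Ddx58, the RIG-I sensor of short viral RNA, read 5.30, 5.11, 5.21, 4.99 and 5.36 against 5.55, 5.42, 5.60 and 6.00. The fall of 0.45 ± 0.12 (SE, adjusted p = 0.019) came without overlap, and a second of its 3 probe sets was also called, at -0.57. After quantile normalisation Ddx58 was not called (adjusted p = 0.0548). Dhx58, the LGP2 regulator of both sensors, read 4.10, 4.28, 4.03, 3.85 and 4.10 against 4.08, 3.91, 4.23 and 4.36. It showed overlapping groups and a difference of -0.07, with a 95% interval from -0.31 to 0.17. For Zbp1, a sensor of left-handed nucleic acid, the difference was -0.03, with an interval from -0.34 to 0.28.

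Neither measured gene of Isg15 conjugation and ubiquitin transfer was called. Usp18, which removes Isg15 from proteins and damps type I signalling at the receptor, read 4.88, 4.49, 3.90, 4.58 and 5.18 on the inactivated arrays and 5.05, 4.67, 5.32 and 5.71 on the controls. The groups overlapped and the difference was -0.58 ± 0.26 (SE, adjusted p = 0.118). Trim25, a ubiquitin ligase that activates RIG-I, read 8.63, 9.38, 8.88, 9.27 and 9.02 against 9.13, 8.91, 9.04 and 9.22. Its difference of -0.04 had an interval from -0.36 to 0.28.

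The antiviral effectors were divided: 5 of 15 fell (33.3%, against 18.9% of all genes) and 10 were not called. Samd9l, an inhibitor of translation in infected cells, read 6.50, 5.91, 5.50, 6.16 and 6.78 on the inactivated arrays and 7.20, 7.06, 7.56 and 7.53 on the controls. It was 2.25-fold lower without overlap (-1.17 ± 0.23, SE, adjusted p = 0.00372). Ifit2, which binds viral RNA and restricts its translation, showed the largest difference of the set. It read 4.30, 3.20, 3.96, 3.62 and 4.61 against 5.23, 4.85, 5.13 and 5.50, and was 2.36-fold lower without overlap (-1.24 ± 0.25, SE, adjusted p = 0.0045). Ifit3, a partner of the other Ifit proteins, read 4.28, 4.13, 3.89, 3.99 and 4.69 against 5.00, 4.67, 5.08 and 5.42. It was 1.79-fold lower (-0.84 ± 0.18, SE, adjusted p = 0.00534), with inactivated replicate 5 just above control replicate 2. Ifit1, which recognises the cap of foreign RNA and lies in the same gene cluster, had a wide spread (-0.61 ± 0.30, SE, adjusted p = 0.155) and was not called.

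Oasl2 and Cmpk2 were the remaining effectors that fell, and both calls were lost under several alternatives. Oasl2, a member of the oligoadenylate synthetase family, differed by -0.83 ± 0.27 (SE, adjusted p = 0.0402). The call was lost when any 1 of inactivated replicates 1 to 4 or control replicates 1, 3 or 4 was left out (differences of -1.03 to -0.67, adjusted p up to 0.121), and with sex as a covariate (-0.81, adjusted p = 0.0711). Cmpk2, a nucleotide kinase that sits beside Rsad2 in the genome, differed by -0.37 ± 0.11 (SE, adjusted p = 0.0355). It lost the call without inactivated replicate 1, 2 or 4 or control replicate 2, 3 or 4 (differences of -0.43 to -0.29 over all arrays left out, adjusted p up to 0.108). The call was also lost with sex as a covariate (-0.38, adjusted p = 0.0532), with array medians subtracted (-0.32, adjusted p = 0.0546) and by the mean of its 2 probe sets (-0.19, adjusted p = 0.0776). Rsad2, the viperin enzyme that makes a chain-terminating nucleotide, differed by -0.42, with an interval from -0.77 to -0.07 (adjusted p = 0.0687), and was called without control replicate 2 (adjusted p = 0.0314). Bst2, which tethers virus particles to the cell surface, differed by -0.40, with an interval from -0.73 to -0.06 (adjusted p = 0.0732), and was called without inactivated replicate 5 (adjusted p = 0.0489). Both of these intervals lay below 0, and neither gene passed the adjusted threshold.

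The other effectors not called had differences from -0.28 to 0.16. Oas2, a synthetase that activates RNase L, differed by -0.28 (interval -0.60 to 0.04). Mx1 and Mx2, dynamin-like proteins that block viral entry and assembly, differed by 0.16 (interval -0.03 to 0.35) and 0.07 (interval -0.10 to 0.24). Oasl1, which represses the translation of Irf7 and is the neighbour of Oasl2, differed by 0.09 (interval -0.12 to 0.29). Isg20, an RNA exonuclease, differed by -0.03 (interval -0.28 to 0.22). For Eif2ak2, the PKR kinase that halts translation on double-stranded RNA, the brightest probe set gave -0.05 (interval -0.19 to 0.09), while 1 of the other 2 gave -0.71 (adjusted p = 0.00183), so its probe sets disagreed. For Adar, which edits double-stranded RNA, the brightest gave -0.08 (interval -0.26 to 0.11) and 1 of the others -0.40 (adjusted p = 0.0415). In all, 18 members had more than 1 probe set, 7 of the 11 called members among them had another that was also lower, and none had one that was higher. Of the 42 members, 7 had a mean below the median of all probe sets, 4.40, and 2 of these were called, against 21 of the 35 brighter ones. Calls were commoner among bright probe sets in general: 29.1% of all genes were lower without dim probe sets, against 18.9% with them. The median difference was -0.07 for the dim and -0.59 for the bright members.

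**Figure D3:**
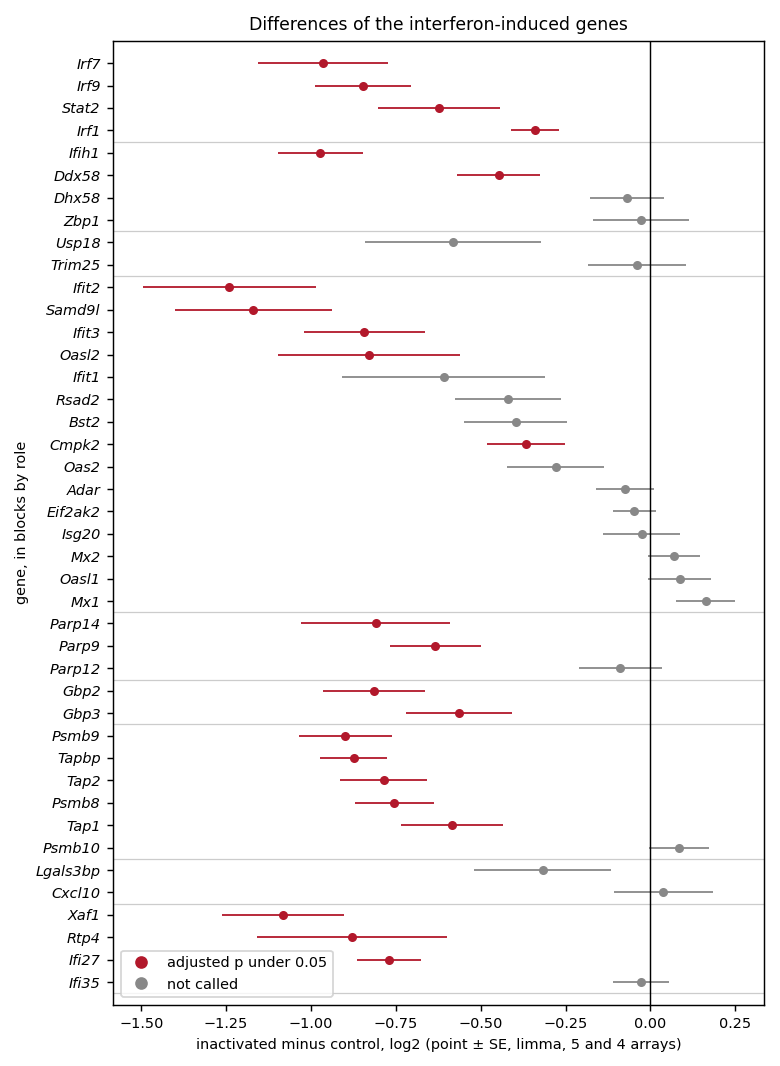
Difference between the inactivated and control groups on the log2 scale for each of the 42 members, with the standard error from limma, in blocks by role; red points passed an adjusted p of 0.05 and grey points did not. The 23 red points lie between -1.24 and -0.34, and the positive differences, the highest at 0.16 for Mx1, are all grey.

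Of the ADP-ribosyltransferases, Parp9 and Parp14 fell and Parp12 was not called. Parp9, which works with a ubiquitin ligase to strengthen interferon signalling, read 6.54, 6.18, 6.31, 6.34 and 6.87 on the inactivated arrays and 7.14, 6.93, 7.01 and 7.25 on the controls. It was 1.55-fold lower without overlap (-0.63 ± 0.13, SE, adjusted p = 0.00534). Parp14, which lies 1 gene away from Parp9, read 5.76, 5.09, 4.78, 5.48 and 5.92 against 6.22, 5.91, 6.24 and 6.49. Its fall of 0.81 ± 0.22 (SE, adjusted p = 0.0182) was not called without control replicate 4 (adjusted p = 0.0605). The second, dimmer probe set of Parp14 differed by -0.12 and was not called (adjusted p = 0.25). Parp12 read 6.97, 6.75, 7.04, 6.95 and 7.33 against 7.06, 6.91, 7.05 and 7.35, with overlapping groups and a difference of -0.09 (interval -0.36 to 0.18).

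Both guanylate-binding proteins, interferon-induced GTPases that attack the compartments of intracellular microbes, fell, against 18.9% of all genes. Gbp2 read 5.94, 5.52, 5.65, 5.78 and 6.32 on the inactivated arrays and 6.60, 6.57, 6.57 and 6.89 on the controls. It was 1.76-fold lower without overlap (-0.81 ± 0.15, SE, adjusted p = 0.00252), and its second probe set gave -0.85. Gbp3, 1 gene away, read 5.67, 5.14, 5.25, 5.31 and 5.75 against 5.81, 5.72, 6.13 and 6.29. It was 1.48-fold lower (-0.57 ± 0.16, SE, adjusted p = 0.0204), with inactivated replicate 5 above control replicate 2, and was not called without control replicate 3 or 4 (adjusted p up to 0.0666). The promoter stretches of both genes, shown above, hold the core within 59 bases of the start.

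The genes of the immunoproteasome and of peptide loading fell in 5 of 6 cases, against 18.9% of all genes. In each of the 5 every inactivated array lay below every control, which held for 17.6% of all genes. The mean level of the 6 genes was between -0.80 and -0.39 on the inactivated arrays, replicate 5 included, and between -0.05 and 0.07 on the controls. Tapbp, the tapasin that holds class I molecules at the peptide transporter, read 8.57, 8.59, 8.74, 8.53 and 8.79 on the inactivated arrays and 9.27, 9.47, 9.65 and 9.68 on the controls. It was 1.83-fold lower (-0.87 ± 0.10, SE, adjusted p = 0.000132), the lowest adjusted p of the set, and its second probe set gave -1.15. Psmb9, a catalytic subunit that replaces Psmb6 in the immunoproteasome, read 7.13, 7.19, 7.43, 7.27 and 7.83 against 8.44, 8.18, 8.23 and 8.23. It was 1.86-fold lower (-0.90 ± 0.14, SE, adjusted p = 0.000771). Psmb8, which replaces Psmb5, read 7.91, 7.60, 8.01, 7.83 and 8.25 against 8.71, 8.70, 8.55 and 8.74. It was 1.69-fold lower (-0.75 ± 0.12, SE, adjusted p = 0.000855). Tap1 and Tap2, the paired chains of the transporter that carries peptides into the endoplasmic reticulum, fell by 0.59 and 0.79 (adjusted p = 0.0142 and 0.00119). The 3 other probe sets of Tap1 were dimmer and not called, with differences of -0.29, -0.0048 and 0.0069. Psmb9, Tap1, Psmb8 and Tap2 follow one another in gene order on chromosome 17, with no other gene between them. Psmb10, the third induced subunit, was not called: its difference was 0.08 (interval -0.11 to 0.28).

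Constitutive proteasome subunits went the other way. Psmb5, Psmb6 and Psmb7, the catalytic subunits that the induced ones replace, were all higher in the inactivated group, by 0.27, 0.54 and 0.33 (adjusted p = 0.00879, 0.000303 and 0.0117), without overlap of the arrays. Over all genes, 15.5% were higher and 14% had every inactivated array above every control. The change in the log2 ratio of induced to constitutive subunit on the same array was -1.02 for Psmb8 over Psmb5 and -1.44 for Psmb9 over Psmb6. Both changes follow from subunits that each separated the groups in opposite directions. The outcome of the permutation test on these ratios was therefore fixed in advance, and it is not used here. The ratio of Psmb10 to Psmb7 changed by -0.25, with overlapping groups (two-sided exact permutation p = 0.0397, and 0.0397 when adjusted over the 3 pairs). Psmb7 alone already separated the groups and Psmb10 was not called, so this p does not speak of Psmb10 itself. A ratio shows unequal change of the subunits' transcripts and not the make-up of the proteasome.

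**Figure D4:**
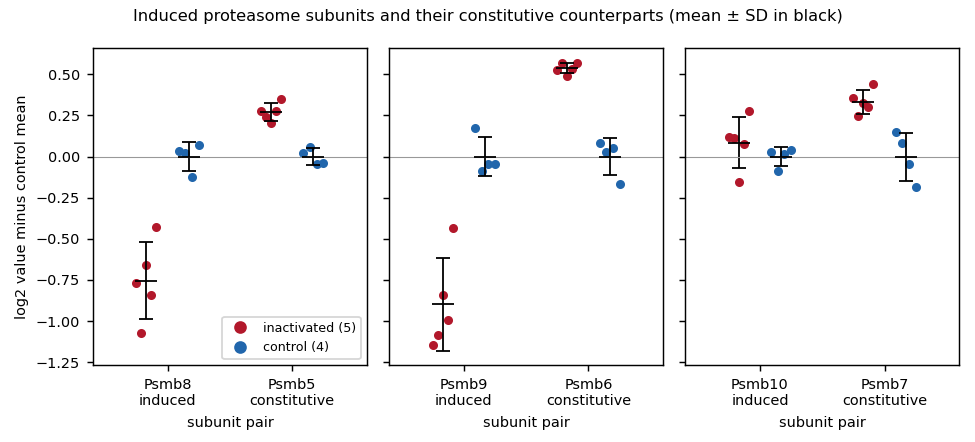
Log2 value of the induced proteasome subunits Psmb8, Psmb9 and Psmb10 and of their constitutive counterparts Psmb5, Psmb6 and Psmb7, each minus its own control mean, on 5 inactivated (red) and 4 control (blue) arrays; black marks give mean ± SD. Psmb8 and Psmb9 lie below all controls and Psmb5, Psmb6 and Psmb7 above all controls, while the arrays of Psmb10 overlap.

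Neither secreted protein of the set was called. Cxcl10, a chemokine that draws T cells, read 3.60, 3.92, 3.86, 3.82 and 4.35 on the inactivated arrays and 3.85, 3.60, 3.92 and 4.12 on the controls, low values for these arrays. The groups overlapped and the difference was 0.04 (interval -0.29 to 0.36). Lgals3bp, a galectin-binding glycoprotein, read 6.03, 5.38, 6.17, 5.94 and 6.17 against 6.14, 5.80, 6.35 and 6.73, a difference of -0.32 (interval -0.77 to 0.13).

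Of the other induced genes, Ifi27, Xaf1 and Rtp4 fell and Ifi35 was not called. Ifi27, a small mitochondrial and nuclear membrane protein, read 7.86, 8.04, 8.04, 7.99 and 8.25 on the inactivated arrays and 9.02, 8.75, 8.70 and 8.75 on the controls. It was 1.71-fold lower without overlap (-0.77 ± 0.10, SE, adjusted p = 0.000215), and its second probe set gave -0.94. Xaf1, which opposes an inhibitor of cell death, read 7.13, 7.12, 6.89, 6.97 and 7.52 against 8.02, 7.77, 8.40 and 8.65. It was 2.12-fold lower without overlap (-1.08 ± 0.18, SE, adjusted p = 0.00136). The second probe set of Xaf1 differed by -0.27 with overlapping groups and was not called (adjusted p = 0.0893). Rtp4, a receptor transporter protein, read 5.38, 5.14, 5.34, 4.92 and 6.18 against 6.22, 5.58, 6.39 and 6.88. Its fall of 0.88 ± 0.28 (SE, adjusted p = 0.0381) had inactivated replicate 5 above control replicate 2. The call was lost when any 1 of inactivated replicates 1 to 4 or control replicates 1, 3 or 4 was left out (differences of -1.11 to -0.67, adjusted p up to 0.114), after quantile normalisation (-0.77, adjusted p = 0.061) and with sex as a covariate (-0.92, adjusted p = 0.0535), while its second probe set was called lower at -0.38. Ifi35, a partner of the Nmi protein, differed by -0.03 (interval -0.21 to 0.16).

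The genes upstream of the response did not move as a block. Of 5 interferon genes measured, 1 was higher (20%, against 15.5% of all genes) and 0 lower. Ifna1 was higher by 0.47 (adjusted p = 0.00923), from 3.98 ± 0.13 (SD, n = 4) in the controls to 4.45 ± 0.20 (SD, n = 5). It was read by a probe set that can match several transcripts. Ifnb1 and Ifng read 2.80 ± 0.18 and 1.67 ± 0.14 in the controls (SD, n = 4) and differed by -0.07 (interval -0.34 to 0.19) and 0.23 (interval -0.06 to 0.52), and Ifna4 and Ifna2 by 0.31 (interval 0.02 to 0.61) and 0.15 (interval -0.07 to 0.37); none of these 4 was called. All 5 lay near or below the median of the arrays, where summarised values are compressed. Of 9 receptor and kinase genes, 4 fell (44.4%, against 18.9% of all genes) and 0 rose. Ifnlr1, the specific chain of the interferon lambda receptor, read 6.10, 6.21, 5.86, 6.15 and 6.17 against 7.12, 6.91, 6.95 and 6.95, and was 1.85-fold lower (-0.88 ± 0.09, SE, adjusted p = 5.6e-05). Its inactivated arrays lay close together, replicate 5 included. Ifngr1, the ligand-binding chain of the interferon gamma receptor, fell by 0.46 (adjusted p = 0.00673). Jak1, the kinase shared by all 3 receptor types, fell by 0.30 (adjusted p = 0.00799), although by the mean of its 3 probe sets the difference was -0.06 and was not called. Ifnar1, a chain of the type I receptor, fell by 0.43 (adjusted p = 0.0172) and was not called without control replicate 2, after quantile normalisation or by the mean of its 2 probe sets.

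Among 13 genes of interferon production, 3 fell (23.1%) and 1 rose (7.7%), shares near those of all genes. Myd88, the adaptor of most Toll-like receptors, was higher by 0.71 (adjusted p = 0.000464). Cgas, the sensor of cytosolic DNA, fell by 0.53 (adjusted p = 0.00414), Tlr3, a receptor for double-stranded RNA, by 0.55 (adjusted p = 0.00567), and Irf3, the factor that starts interferon beta transcription, by 0.45 (adjusted p = 0.0126). Of 6 negative regulators, 2 fell (33.3%, against 18.9% of all genes) and 0 rose. Ptpn6, the phosphatase SHP-1, fell by 0.45 (adjusted p = 0.0217) and was not called without control replicate 4, and Irf2, a competitor of Irf1, fell by 0.29 (adjusted p = 0.0305) but lost its call under 9 of 16 alternatives. Socs3 and Socs1, feedback inhibitors of Jak kinases, differed by 0.87 (interval 0.16 to 1.58, adjusted p = 0.0662) and 0.61 (interval -0.02 to 1.24), and neither was called. Socs3 was called higher under 5 of 17 alternatives (differences of 0.56 to 1.04 over all alternatives). The 5 were without inactivated replicate 1 or 5, with sex as a covariate, with array medians subtracted and with the replicate number as a block. Inactivated replicate 5 adds nothing to the difference in the block model either, since it has no control of its number.

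A longer list of 43 other interferon-induced genes was closer to the background. In it 10 fell (23.3%, against 18.9% of all genes), 4 rose (9.3%, against 15.5%) and 29 were not called, with a median difference of -0.14. Tor3a, an ATPase of the endoplasmic reticulum, fell by 1.16 (adjusted p = 0.000272), and Lgals9, the galectin-9 lectin, by 0.60 (adjusted p = 0.00408). Ifi27l2a, a relative of Ifi27, was 3.59-fold lower (-1.84 ± 0.39, SE, adjusted p = 0.00537). Samhd1, which depletes deoxynucleotides, rose by 1.05 (adjusted p = 0.00123).

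Class I presentation outside the set showed falls too. Of 10 genes 5 fell (50%, against 18.9% of all genes) and 0 rose, with a median difference of -0.22. Nlrc5, the transactivator of class I genes, read 7.67, 7.75, 7.87, 7.91 and 7.84 against 8.53, 8.42, 8.45 and 8.24, and was 1.52-fold lower without overlap (-0.60 ± 0.08, SE, adjusted p = 0.000372). Tapbpl, a tapasin relative, fell by 0.43 (adjusted p = 0.00985). H2-K1, a class I heavy chain whose probe sets may also match other class I genes, fell by 0.32 (adjusted p = 0.0107), and B2m, the light chain, by 0.28 (adjusted p = 0.0136). The general chaperones Calr, Canx and Pdia3 were not called, with differences of 0.13, -0.08 and -0.13. Class I genes are expressed by nearly all cells. The Langerhans cell, T cell and fibroblast marker sums given above were lower in the same arrays, and their part in these falls was not tested.

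**Figure D5:**
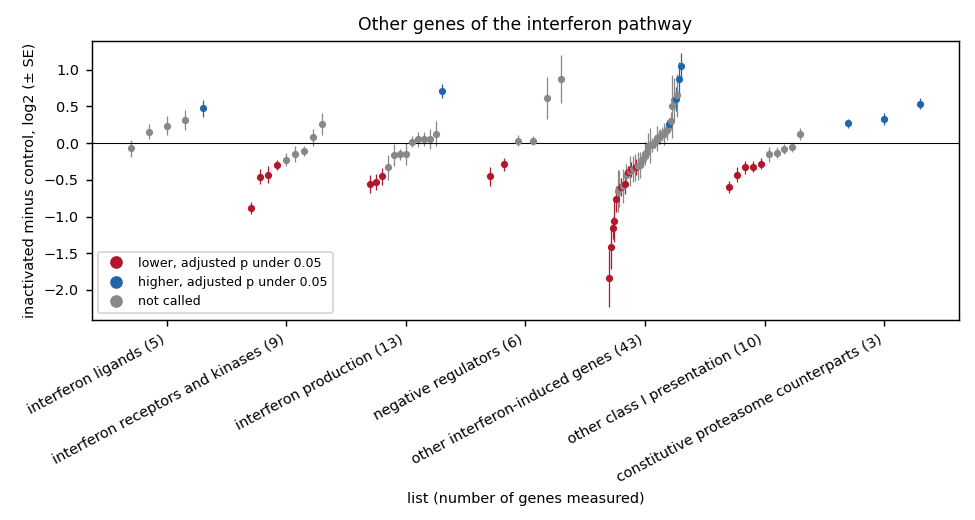
Log2 difference between groups, with the standard error from limma, of each measured gene in 7 lists of interferon ligands, receptors and kinases, interferon production, negative regulators, other induced genes, class I presentation and constitutive proteasome subunits (x axis, number of genes in brackets). Red points were called lower, blue points higher and grey points neither; the receptor list has 4 red and 0 blue points, and the constitutive proteasome list 3 blue.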

How the data were processed

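Total RNA of scratched epidermal sheets was hybridised to Affymetrix Mouse Genome U430 2.0 arrays, 5 inactivated and 4 control, per the labels' protocols. The authors deposited 1 table of log2 values for 45037 probe sets. The submitters' processing notes name the R package affy with no version. How background, normalisation and summary were handled, and the log base, is not given in the sources used here; the highest value, 13.53, is above the natural logarithm of any scanner value, so values were read as log2. Values near background and near the top are compressed, which understates folds of very dim or bright genes.

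Gene symbols came from the platform annotation, in which 34945 probe sets had 1 gene symbol, 932 several and 9160 none. No column was changed or filtered. The test was limma 3.58.1 under R 4.3.3 (lmFit, then eBayes; two-sided) with no covariate, 7 residual degrees of freedom, and Benjamini-Hochberg adjustment over all probe sets at 0.05; intervals are 95%. The labels call the arrays biological replicates and do not say whether they came from separate litters. No 2 columns were identical. For single ratios an exact permutation test over 126 splits was used. Marker sums are sums of linear values. The sex of each mouse was taken from its Xist and Y-linked signals. The steps were tested on simulated data. Within each role, the text gives every array for up to 3 members with the lowest adjusted p. For each other list it names up to 4 genes with the lowest adjusted p. Ifnb1, the chaperones and the sum without Ly6d were added after their values were seen. So were the Langerhans cell markers named, the levels of Ly6d and Krt5, and the values per array of Ifnlr1 and Nlrc5. The members and lists were chosen with earlier results of these data known. Alternatives were a threshold of 0.01, other scalings (quantile normalisation, array medians), other choices of probe set, removal of dim ones, an intensity trend, sex or the replicate number in the model, and 1 array left out at a time. Each alternative picked the brightest probe set of a gene again on its own values.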

Additional observations from a re-analysis of the deposited data

Results flagged for a closer look

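A gap test for single arrays that stand apart from their group was run on 106 groups of values (each measured member and each role level in both groups), and 6 were past its 95% limit, where chance gives about 1 in 20 groups. On inactivated replicate 5, Irf1 was at 7.251 with the next array at 7.076, Ifih1 was at 7.427 with the next at 6.914, and the level of the 4 transcription factors was at -0.3513 with the next at -0.7118. All 3 were the highest of the inactivated group, and lay on the side of the controls. On the control arrays, Gbp2 was highest at 6.89 on replicate 4 (next 6.596), Psmb9 was highest at 8.444 on replicate 1 (next 8.226), and Tap2 was lowest at 7.259 on replicate 1 (next 7.669). Psmb9 and Tap2 thus stood apart on the same control array in opposite directions.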

How the results depend on the processing

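The count of 23 members lower, with 18.9% of all genes lower, was 21 after quantile normalisation and 22 with array medians subtracted. Under each of these scalings 16.7% of all genes were lower. Without dim probe sets the count was 21 of 35, with 29.1% of all genes lower. It was 23 with all probe sets averaged per gene, without probe sets that can match several transcripts and with an intensity trend. These settings called 26 or 27 members and 22.5% to 23.4% of all genes lower at an unadjusted p under 0.05. With sex as a covariate the count was 19. By the unadjusted rule that model called 26 members and 24.2% of all genes lower. At a threshold of adjusted p 0.01 the count was 15, with 12% of all genes lower. In female mice alone, with 1 control, it was 0, and in male mice 18; these 2 alternatives were chosen after seeing the data. The number higher was 0 under every alternative run. Leaving out 1 array gave 17 to 24 members lower and a module level of -0.57 to -0.42. By the unadjusted rule it gave 23 to 29 members lower, and 21.4% to 24.5% of all genes. Replicate numbers did not pair the arrays: same-numbered deviations correlated at -0.27, 0.01, -0.09 and 0.08, and 1 of 4 arrays correlated best with its own number. With the replicate block 25 members were lower and 0 higher, adding Oas2 and Bst2, and Psmb5, Psmb7, Ifnar1 and Irf2 lost their calls. By the unadjusted rule the block model called 29 members and 23.2% of all genes lower. Inactivated replicate 5 has no control of its number, so it adds nothing to the differences in that model. Signs changed only for genes not called. Quantile normalisation turned Zbp1 to 0.063, Isg20 to 0.057, Eif2ak2 to 0.055 and Adar to 0.020. Median subtraction turned Zbp1 to 0.016, Trim25 to 0.0049, Isg20 to 0.018 and Ifi35 to 0.016. The mean of probe sets turned Dhx58 to 0.027, and with all its probe sets averaged Eif2ak2 was called lower, at -0.26. Sex as a covariate turned Cxcl10 to -0.011 and the replicate block turned it to -0.070. Leaving out 1 array gave Trim25 -0.13 to 0.062, Zbp1 -0.12 to 0.096, Isg20 -0.082 to 0.056, Ifi35 -0.080 to 0.019, Cxcl10 -0.070 to 0.12 and Dhx58 -0.15 to 0.0011. The median of all genes was 0.03, 0.03 after quantile normalisation and 0.07 with medians subtracted. Dim members limit what can be read: 2 of 7 below the median of all probe sets were called. The cause of the changed calls was not tested.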
